A study of Mus musculus with 26 samples.

Results

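Gene expression in the whole testis of C57BL/6 mice was compared at postnatal day 21 between Nkapl knockout (Nkapl-KO) and wild type by sequencing of total RNA, with 2 knockout and 3 wild-type libraries. These 5 libraries come from 6 of the 26 count files of the series. Each of those files holds 1 column of read counts under a library number, and in 5 of the 6 files that number is the one of a different sample of the set. Libraries were named by the number in the heading. The number of wild type 1 heads 2 files, which differ in 0 of 24682 genes and were counted once. The library called wild type 3 here has a wild-type number in its heading while its file is filed as a knockout, so the counts of calls, the lists and the shares by chromosome and gene type were also computed without it. Knockout 3 was not analysed here. The labels describe the groups as biological triplicates and give the genotype of the mutants only as a knockout of Nkapl, without the deleted stretch, a Cre driver or the number of founders. P-values measure the spread between these libraries.

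Nkapl is a single-exon gene on chromosome 13 (GRCm38.p6 chr13:21467047-21468501) that is expressed in male germ cells. Its X-linked paralogue Nkap encodes a nuclear protein known for roles in RNA processing and as a partner of the Notch corepressor complex. In the testis, spermatogonia divide and enter meiosis as spermatocytes, which pass a long prophase (pachytene), divide and become haploid round spermatids. Spermatids then build the acrosome, the tail and a compacted nucleus. The first wave of this process runs nearly in step across tubules, so that a testis at this age holds spermatogonia, spermatocytes and the first round spermatids, but few later cells.

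Total counts ranged from 20120729 to 25514132 per library, and 16937 genes passed edgeR's filter on low counts. Levels are given as CPM, counts divided by a library total scaled by edgeR's trimmed mean of M-values (TMM), in the order wild type 1, 2 and 3 and knockout 1 and 2. Differences are log2 fold changes of knockout over wild type with their standard errors, and a gene was called where edgeR's quasi-likelihood test gave a Benjamini-Hochberg adjusted p under 0.05. Any pair of libraries of 1 genotype differed by a median log2 size of 0.0840 to 0.108 over genes, and any pair of different genotypes by 0.210 to 0.225. Wild type 3 was no exception, at 0.0890 and 0.0840 from the other wild-type libraries and at 0.210 and 0.219 from the knockout libraries. Its level lay between those of the other wild-type libraries in 45.1% of 14055 genes with a mean log2 CPM of at least 1. For wild type 1 and wild type 2 these shares were 26.4% and 28.6%. Markers of the expected cells were present in all 5 libraries, among them Sycp3 of the synaptonemal complex (223 to 242 CPM in wild type, 235 to 250 in knockout), Ldhc of spermatocytes (1367 to 1390 and 1051 to 1120) and Wt1 of Sertoli cells (105 to 113 and 127 to 134). The late spermatid genes Tnp1 and Prm1 stayed under 1 CPM everywhere.

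Nkapl itself was at 74.9, 79.5 and 79.9 CPM in wild type and at 60.8 and 57.8 CPM in knockout. All 3 wild-type libraries, wild type 3 included, lay above both knockout libraries. The log2 difference was -0.40 ± 0.05 (edgeR quasi-likelihood test, Benjamini-Hochberg adjusted p = 2.96e-06), so most of the reads assigned to the gene were still counted in the mutants. Whether those reads come from a stretch outside the deletion cannot be read from the counts, and the gene therefore checks the labels only in part. Nkap was at 5.95, 6.01 and 8.45 CPM in wild type and 9.14 and 7.33 CPM in knockout, with overlapping groups and a log2 difference of 0.27 ± 0.16 (edgeR adjusted p = 0.187). Without wild type 3 that difference was 0.45 with an edgeR adjusted p of 0.039.

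In knockout testes many genes were slightly higher, while the falls reached much further. Of 16937 genes tested, 4420 were lower in knockout (26.1%) and 3013 were higher (17.8%). By a log2 size of at least 1, 1457 genes were lower (8.6%) and 32 were higher (0.189%). The median called fall was -0.55 on the log2 scale and the median called rise 0.25. In all, 91.1% of the rises and 47.2% of the falls were smaller than a log2 size of 0.5. The 2 groups of libraries did not overlap in 5569 genes that were lower in knockout (32.9%) and in 5000 genes that were higher (29.5%). Without wild type 3, 3851 genes were lower and 2117 higher, with 1349 and 34 past a log2 size of 1, and 3822 of the lower and 2090 of the higher genes were the same. Without knockout 2, 3617 genes were lower and 1816 higher, so the number of small rises depended more on single libraries than the number of falls. With scaling by library totals alone the split of calls turned, to 4605 higher and 3806 lower, so that 54.7% of calls were rises against 40.5% with TMM. That scaling moved the median over all genes from 0.01 to 0.07 on the log2 scale, and small changes in either direction depend on it, while 1399 genes still fell by at least 1 on the log2 scale. In whole testis, fewer cells of a type and less RNA per cell cannot be told apart.

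**Figure D1:**
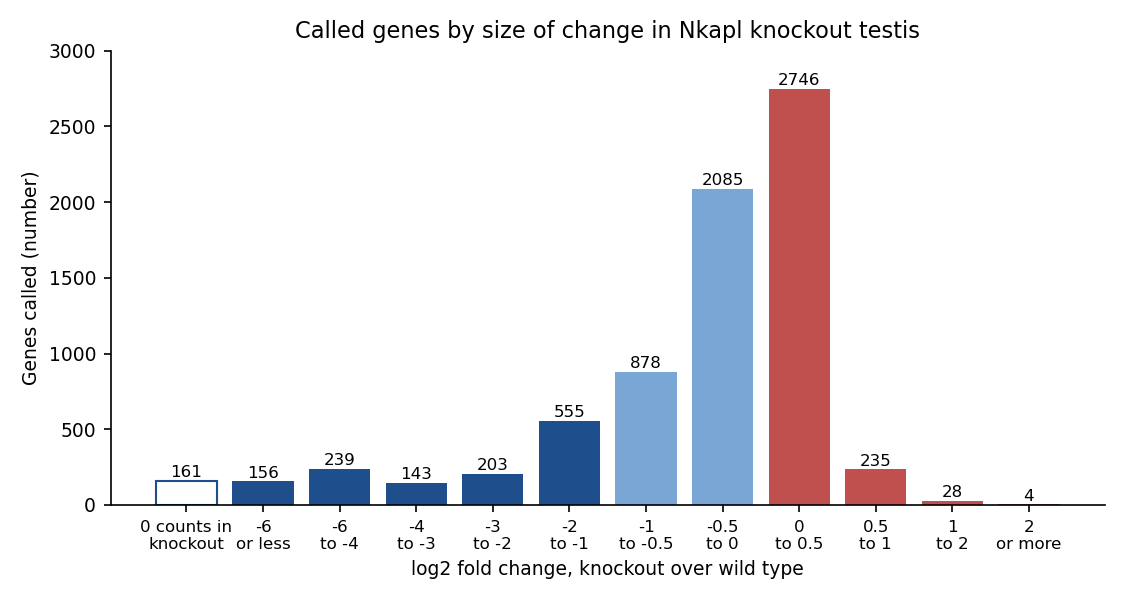
Number of called genes (vertical axis) by log2 fold change of knockout over wild type (horizontal axis), from edgeR's quasi-likelihood test on 3 wild-type and 2 knockout libraries. Red bars are rises, light blue bars falls under a log2 size of 1 and dark blue bars larger falls; the open bar holds the 161 genes without a count in knockout, whose size of change is only bounded. The falls spread over more than 6 log2 units, while 2746 of the rises lie under 0.5.

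The largest falls ended in genes with no read left. Of 16937 genes tested, 161 had 0 counts in both knockout libraries, and all of these were called lower. Among the genes tested, 0 had 0 counts in all wild-type libraries. A gene without a knockout count can pass the filter on low counts only through wild type. The filter is easier to meet with 3 wild-type than with 2 knockout libraries, so 161 and 0 are not on equal terms. For the 161 genes a lower bound was computed by setting 3 counts over both knockout libraries in place of 0. The bounds ran from at least 6.06-fold to at least 271-fold lower, with a median of 18.7-fold. A further 229 lower genes had 1 to 3 counts over both knockout libraries.

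Smcp, a cysteine-rich protein of the sheath of mitochondria in the sperm midpiece, was at 21.3, 13.5 and 17.3 CPM in wild type and at 0 counts in both knockout libraries, at least 271-fold lower. Odf3, a component of the outer dense fibres of the tail, was at 9.49, 7.07 and 8.05 CPM and 0 counts, at least 128-fold lower. Galntl5, a member of the GalNAc transferase family found in the acrosome, was at 9.86, 6.23 and 7.51 CPM and 0 counts, at least 123-fold lower. In all 3 genes the lowest wild-type library was wild type 2, and the groups did not overlap. Gapdhs, the sperm form of the glycolytic enzyme GAPDH, was at 32.0, 21.1 and 24.5 CPM in wild type and had 1 count in knockout 1 and 0 in knockout 2, against 1730 counts in wild type. Its ratio of wild type to knockout was 1210 (95% counting interval 217 to 47825, which covers counting error only). Adam26a was at least 135-fold lower, Spata45 104-fold, Txndc8, a thioredoxin of sperm, 94.2-fold, Lrrc72 92.6-fold, Tmco2 90.7-fold, Tbc1d21 88.8-fold, Izumo2 74.6-fold and the lysozyme-like gene Lyzl1 73.4-fold. Within wild type, 75.6% of the 1457 large falls had higher levels in wild type 1 than in wild type 2 (median log2 difference 0.26), with wild type 3 between them. The knockout libraries differed by a median of 0.05. The same shares over all genes are not given here, so this order may not be particular to the large falls. Adam26a has close copies in the genome, and how the counting treated reads shared by such copies is not given in the sources used here.

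Promoter sequences of these genes were taken from RefSeq windows on GRCm38.p6, which run from 250 bases before a start to 50 after it. The start used for a window is not always the outer end of the gene's span. The 250 bases before the start of Smcp and Odf3 are shown, as the 2 largest bounds among genes with a window, on the gene's strand, 5′ to 3′. Capitals mark GTTGCC, the core of the X-box bound by RFX factors, on either strand; ACAATGG, a SOX core followed by GG, is in neither. Smcp is given at chr3:92589074-92589323, minus strand, and Odf3 at chr7:140847666-140847915, plus strand.
Smcp: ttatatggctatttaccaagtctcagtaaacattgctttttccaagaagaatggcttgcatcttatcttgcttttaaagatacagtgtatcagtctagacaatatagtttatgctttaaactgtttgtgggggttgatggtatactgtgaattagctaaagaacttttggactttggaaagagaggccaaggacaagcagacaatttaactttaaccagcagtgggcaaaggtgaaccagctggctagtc
Odf3: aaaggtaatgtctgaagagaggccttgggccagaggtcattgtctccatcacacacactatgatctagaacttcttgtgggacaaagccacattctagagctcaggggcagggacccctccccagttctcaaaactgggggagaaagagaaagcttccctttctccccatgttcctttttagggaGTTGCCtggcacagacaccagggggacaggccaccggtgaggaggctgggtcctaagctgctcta
Of the 12 largest named falls 10 had a window. In these, the 250 bases before the window's start held GTTGCC in 2 (Odf3 and Lrrc72), ACAATGG in 0 and TATAAA in 0. The stretch searched for Lrrc72, chr12:36253399-36253648 on the minus strand, lies inside the gene's span (chr12:36208329-36256396). That of Gapdhs also lies inside its gene.

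Promoter windows were searched for 75 protein-coding genes of the class of 161 without a knockout count, and the shares of all motifs are given further on. In 11 of these 75 genes the letters ACAATGG were present, and in 10 of them before the start. The 7 matches within 70 bases of the start are shown to let their surroundings be compared, each with 20 bases on either side, on the gene's strand, 5′ to 3′, with the match in capitals (CCATTGT is the reverse complement). These genes were chosen by the match after their values had been seen, and 5 of the 7 lie on the X chromosome.
Cypt2: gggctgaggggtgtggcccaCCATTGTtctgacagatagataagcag
Cypt3: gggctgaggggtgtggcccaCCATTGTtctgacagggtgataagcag
Cpxcr1: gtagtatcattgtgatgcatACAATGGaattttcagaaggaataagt
Cldn34b2: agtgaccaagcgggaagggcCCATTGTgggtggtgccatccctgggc
Gm5347: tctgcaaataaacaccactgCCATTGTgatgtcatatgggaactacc
4930596D02Rik: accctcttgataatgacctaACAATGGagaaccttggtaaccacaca
4933436I01Rik: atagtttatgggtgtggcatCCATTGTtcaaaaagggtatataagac
The stretches lie at chrX:105499704-105499750 (Cypt2, plus strand, match 48 bases before the start), chrX:153558525-153558571 (Cypt3, plus strand, match 48 bases before the start), chrX:116448894-116448940 (Cpxcr1, plus strand, match 30 bases before the start), chrX:155147855-155147901 (Cldn34b2, minus strand, match 32 bases before the start), chr8:43699531-43699577 (Gm5347, minus strand, match 66 bases before the start), chr14:35812007-35812053 (4930596D02Rik, minus strand, match 55 bases before the start) and chrX:67921455-67921501 (4933436I01Rik, minus strand, match 31 bases before the start). Cypt2 and Cypt3 are copies whose shown stretches are nearly the same, so they are not separate examples. Their levels in wild type were low: Cypt2 was at 3.13, 1.72 and 2.64 CPM and Cpxcr1 at 2.72, 1.63 and 2.46 CPM, and by their counts both were lower by at least 38.9-fold and 35.4-fold. A match of letters is a description of the window and was not tested as a binding site.

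The plot of single libraries sets genes of spermatogonia and Sertoli cells beside genes of meiosis and of spermatids.

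**Figure D2:**
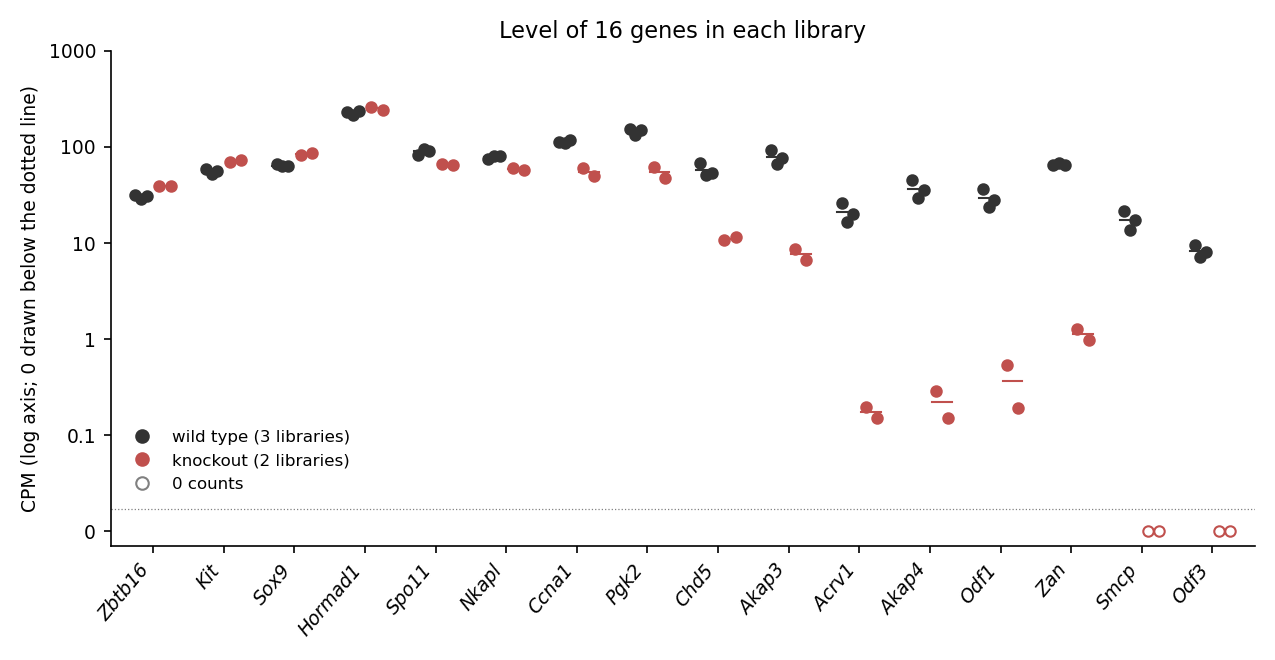
CPM (vertical log axis, TMM-scaled) of 16 genes (horizontal axis) in each of 3 wild-type libraries (black) and 2 knockout libraries (red); short lines are group means and open symbols are 0 counts. Zbtb16, Kit and Sox9 lie higher in both knockout libraries, Hormad1 differs by 0.16 on the log2 scale, and Smcp and Odf3 have 0 counts in both.

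Several regulators of germ cells before meiosis were slightly higher in the knockout. Gene lists are described by the number of members tested, called higher and called lower, beside 17.8% higher and 26.1% lower over all genes tested, and by the median log2 difference of their members, beside 0.01 over all genes. Without wild type 3, 12.7% of all genes tested were higher and 23.0% lower. Of 17296 genes tested without knockout 2, 1816 were higher and 3617 lower, and of 17288 without knockout 1, 2236 and 4002. Member counts in those fits are to be read beside these. Members with 0 counts in knockout are to be read beside 161 of all 16937 genes tested. Of 13 genes of undifferentiated spermatogonia, 5 were higher and 1 lower (median 0.16). Over left-out libraries 4 to 6 were higher, with medians from 0.11 without wild type 3 to 0.25 without knockout 2. The summed level of all 17 genes of the list, tested or not, was 216 to 233 CPM in wild type and 251 to 257 CPM in knockout. Zbtb16, a zinc finger factor needed to keep the stem cells, was at 31.9, 28.4 and 30.6 CPM in wild type and 39.0 and 39.1 CPM in knockout, with no overlap, a log2 difference of 0.37 ± 0.06 and an edgeR adjusted p of 1.15e-04. Sall4 rose by 0.41 ± 0.08 and Ret, the receptor for the niche factor GDNF, by 0.55 ± 0.12 on the log2 scale. Bcl6b, a transcription repressor of these cells, was the member that fell, from 3.86, 4.46 and 3.76 CPM to 2.24 and 2.43 CPM, by 0.78 ± 0.18 on the log2 scale. Of 15 genes of differentiating spermatogonia, 8 were higher and 2 lower (median 0.25), but their summed level overlapped, at 1423 to 1433 CPM and 1419 to 1448 CPM. The number of higher members was 5 without wild type 3 and 4 without knockout 2. Kit, the receptor that marks differentiation, was at 58.2, 52.0 and 56.0 CPM and 70.05 and 72.8 CPM, higher in both knockout libraries by 0.37 ± 0.05. Dnmt1, the maintenance DNA methyltransferase, rose by 0.33 ± 0.04 and Dmrt1 by 0.30 ± 0.05. Against this direction Dmrtb1, a factor of the mitosis-to-meiosis transition, fell from 322, 307 and 308 CPM to 216 and 209.8 CPM.

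The machinery of early meiotic prophase showed small changes in both directions. Of 15 genes of synapsis and cohesion, 4 were higher and 5 lower (median 0.08), and of 24 genes of recombination, 5 were higher and 4 lower (median 0.08). The synapsis list had 1 member higher and a median of 0.03 without knockout 1 and 3 lower without wild type 3 or knockout 2, and the recombination list 8 higher without wild type 2 and 2 lower without knockout 2. Syce1, a central element protein of the synaptonemal complex, was at 229.6, 223 and 214 CPM in wild type and 143 and 143 CPM in knockout, lower by a log2 difference of -0.64 ± 0.04. Rec8, the meiotic kleisin of cohesin, fell by 0.67 ± 0.06, and Stag3, another cohesin subunit, by 0.27 ± 0.04 on the log2 scale. Spo11, which makes the breaks that start recombination, was at 82.8, 95.4 and 91.4 CPM and 67.0 and 65.2 CPM, without overlap, a log2 difference of -0.44 ± 0.05 (edgeR adjusted p = 3.10e-06). In the other direction Brca2, a mediator of recombination, rose by 0.20 ± 0.04. Hormad1 of the chromosome axis was at 231, 212 and 234 CPM and 261 and 244 CPM, a log2 difference of 0.16 ± 0.04 with an edgeR adjusted p of 0.00685 that became 0.10 without knockout 1.

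From mid-prophase on, falls prevailed. Of 24 genes of the pachytene programme, 19 were lower and 1 higher (median -0.30). Pgk2, the germ cell form of phosphoglycerate kinase, was at 152, 134 and 149.9 CPM in wild type and 62.3 and 47.6 CPM in knockout, a log2 difference of -1.41 ± 0.08 (edgeR adjusted p = 1.26e-10). Both knockout libraries were under every wild-type library, and knockout 2 was the lower of them. Spata16 fell from 261, 269.5 and 265 CPM to 155 and 153 CPM. Acrv1, an acrosomal protein gene that is on this list as well as among spermatid genes, went from 25.9, 16.4 and 20.2 CPM to 0.195 and 0.152 CPM, a log2 difference of -6.89 ± 0.31. The testis linker histone Hist1h1t was the member that rose, from 442, 435 and 433 CPM to 476 and 482 CPM, by 0.13 ± 0.03. Of 37 genes of the meiotic divisions, 20 were lower and 1 higher (median -0.14), with 0 higher without knockout 2. Ccna1, the cyclin that germ cells need to leave prophase, was at 111, 111 and 118 CPM and 59.9 and 49.7 CPM, a log2 difference of -1.05 ± 0.06. Plk1, a kinase of both divisions, was at 92.8, 90.7 and 86.4 CPM and 47.5 and 43.1 CPM, and the kinetochore motor Cenpe fell by 0.67 ± 0.04 on the log2 scale. Ccna2, the cyclin of the mitotic cycle, rose by 0.29 ± 0.07 (edgeR adjusted p = 0.00206, and 0.057 without knockout 2).

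Transcription regulators of late germ cells fell in part. Of 24 such genes, 16 were lower and 4 higher (median -0.29), and 0 were higher without knockout 2. Zmynd15, a spermatid repressor, was at 99.9, 95.7 and 95.01 CPM in wild type and 35.7 and 32.3 CPM in knockout, a log2 difference of -1.52 ± 0.05, and Spz1 at 37.4, 23.9 and 30.1 CPM and 1.31 and 1.48 CPM, a log2 difference of -4.43 ± 0.21. Rfx1, of the family that binds the X-box, was at 51.5, 50.6 and 49.1 CPM and 22.9 and 23.0 CPM, lower by a log2 difference of -1.14 ± 0.06. Sox30, a SOX factor of spermatocytes and spermatids, was at 101, 96.8 and 98.5 CPM and 92.4 and 94.6 CPM. Its knockout libraries lay under the wild-type ones, but the log2 difference of -0.08 ± 0.04 was not called (edgeR adjusted p = 0.139). Of 50 genes of RNA polymerase II pausing and elongation, 19 were higher and 11 lower (median 0.07), and 0 of them passed a log2 size of 1. Larp7, which binds and stabilises the 7SK RNA, fell from 296, 276 and 287 CPM to 199 and 199.8 CPM, and the elongation factor Tcea2 from 237, 245 and 244 CPM to 178 and 162 CPM. The elongation factor gene Supt6 rose by 0.22 ± 0.04 and the Mediator subunit gene Med12 by 0.33 ± 0.06.

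RNA-binding pathways of germ cells were mixed. Of 26 piRNA pathway genes, 11 were higher and 7 lower (median 0.08), with 6 higher without wild type 3 and 6 without knockout 2. The higher ones included Mov10l1, the helicase that feeds precursors into the pathway, at 327, 342 and 330.2 CPM and 380.1 and 379 CPM, and Tdrd12 (log2 difference 0.21 ± 0.04). The lower ones included the Tudor domain genes of the germ granule Tdrd6, at 1064, 1202 and 1130.1 CPM and 820.1 and 763 CPM, and Tdrd7, and Mael, with log2 differences of -0.52 ± 0.05, -0.42 ± 0.04 and -0.39 ± 0.04. Of 31 genes of translation control, 14 were lower and 6 higher (median -0.07, -0.03 without wild type 1 and -0.01 with scaling by library totals). Papolb, the poly(A) polymerase of the germ cell cytoplasm, fell from 335, 327 and 338 CPM to 227 and 205 CPM, and Pabpc2, a testis form of the poly(A) binding protein, by 0.76 ± 0.04 on the log2 scale. Dazl rose by 0.19 ± 0.04 and Celf1 by 0.25 ± 0.04.

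Many genes that build the spermatid and the sperm fell far. The summed level of the spermatid chromatin list was 3184 to 3285 CPM in wild type and 3032 to 3063 CPM in knockout. For the acrosome list it was 3185 to 3290 CPM and 2062 to 2188 CPM, and for the fibrous sheath list 726 to 796 CPM and 358 to 364 CPM. Of 17 genes of spermatid chromatin that passed the filter, of 21 named, 10 were lower and 4 higher (median -0.60, and -0.39 without wild type 1 or wild type 3), and 3 had 0 counts in knockout. Chd5, a remodeller needed for histone removal, was at 67.7, 51.1 and 53.9 CPM in wild type and 10.7 and 11.6 CPM in knockout, a log2 difference of -2.37 ± 0.11 (edgeR adjusted p = 1.21e-11). Hils1, a spermatid linker histone, was at 17.98, 10.2 and 15.2 CPM and 0.243 and 0.190 CPM, while the testis histones Hist1h2aa and Hist1h2ba, which spermatocytes already carry, rose by 0.30 ± 0.04 and 0.23 ± 0.04.

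Of 41 acrosome genes tested, 38 were lower and 0 higher, 25 of them by a log2 size of at least 1, with a median of -3.16. The median was -2.81 without knockout 1 and -3.77 without knockout 2, with 38 lower in both fits. Zp3r, a matrix protein that binds the egg coat, was at 23.7, 20.7 and 21.8 CPM in wild type and 0.195 and 0.114 CPM in knockout, a log2 difference of -7.15 ± 0.21 (edgeR adjusted p = 1.56e-13). Nt5c1b was at 43.7, 31.3 and 36.6 CPM and 0.389 and 0.0760 CPM and Tmco5 at 26.4, 17.6 and 22.3 CPM and 0.146 and 0.0760 CPM. The fall was not the same over the list: Acr, the main acrosomal protease, which spermatocytes already express, was at 103 to 107 CPM in wild type and 65.4 to 67.9 CPM in knockout. Of 25 genes of egg binding and fusion, 20 were lower and 1 higher (median -0.93). Zan, which encodes zonadhesin, was at 65.0, 67.6 and 65.0 CPM and 1.26 and 0.988 CPM, a log2 difference of -5.88 ± 0.10. Plcz1, the sperm factor that starts calcium waves in the egg, was at 28.3, 22.3 and 24.99 CPM and 1.65 and 1.86 CPM, a log2 difference of -3.83 ± 0.15. Dcst1 had 1099 counts in wild type and 3 in knockout, a ratio of 256 (95% counting interval 87.5 to 1244). The member that rose was Tex101, from 345, 329.8 and 341 CPM to 391 and 389 CPM.

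The tail lists ran from large to modest falls. All 11 fibrous sheath genes tested were lower (median -3.38). Akap4, its main protein, was at 44.8, 29.6 and 35.9 CPM in wild type and 0.292 and 0.152 CPM in knockout, a log2 difference of -7.39 ± 0.28 (edgeR adjusted p = 1.51e-12), and Akap3, its partner in the sheath, at 93.9, 66.6 and 76.8 CPM and 8.66 and 6.69 CPM, a log2 difference of -3.38 ± 0.14. Ropn1 had 568 counts in wild type and 1 in knockout, a ratio of 397 (95% counting interval 71.0 to 15720.4). Of 19 genes of the outer dense fibres and the midpiece, 17 were lower and 0 higher (median -0.89), with Odf1 at 36.4, 23.7 and 28.0 CPM and 0.535 and 0.190 CPM and Tekt4, a tektin of the axoneme, at 87.4, 78.7 and 78.6 CPM and 26.6 and 19.8 CPM. Of 74 axoneme genes, 63 were lower and 0 higher, but by a median of only -0.48, with 10 past a log2 size of 1. Spag6 of the central pair was at 44.3, 31.1 and 37.3 CPM and 0.973 and 0.684 CPM, a log2 difference of -5.52 ± 0.20, and Cfap58 at 61.0, 53.4 and 58.1 CPM and 17.7 and 18.5 CPM. The genes of intraflagellar transport and the BBSome, which carry cargo along the growing tail, fell least among these: 31 of 43 were lower and 1 higher, with a median of -0.27 and 0 past a log2 size of 1; 0 to 3 were higher over left-out libraries. Ttc21a had the largest change among them, from 127, 123.8 and 126 CPM to 62.7 and 65.5 CPM. Of 24 genes of sperm ion transport, 22 were lower and 0 higher (median -0.60). The pore subunit genes of the CatSper calcium channel Catsper1, at 21.4, 16.3 and 19.6 CPM and 0.146 and 0.0760 CPM, and Catsper4, at 17.5, 14.7 and 15.1 CPM and 0.243 and 0.152 CPM, were under 1 CPM in knockout, and the potassium channel gene Kcnu1 was at 29.6, 23.2 and 27.2 CPM and 2.53 and 2.01 CPM.

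Of 36 genes of head shaping and actin-like proteins, 34 were lower and 0 higher (median -0.69). Actl7b, an actin-like protein of the head, was at 144, 123 and 130.2 CPM in wild type and 46.4 and 43.4 CPM in knockout, and Spata20, a thioredoxin-related gene, at 91.4, 68.0 and 80.7 CPM and 4.62 and 3.15 CPM, a log2 difference of -4.39 ± 0.14. Capza3, the germ cell form of an actin capping subunit, had 460 counts in wild type and 1 in knockout, a ratio of 322 (95% counting interval 57.5 to 12736). Of 25 kinases and phosphatases, 21 were lower and 1 higher (median -0.49), with 0 higher without wild type 3 or knockout 1. Among the lower ones were the spermatid kinases Tssk2, at 14.9, 8.97 and 12.7 CPM and 0.243 and 0.0760 CPM, and Tssk4, at 16.1, 12.3 and 12.2 CPM and 0.827 and 1.03 CPM, and Hipk4, at 34.7, 25.5 and 29.8 CPM and 1.07 and 1.41 CPM. The glycolytic genes moved in both directions. Of 27 tested, 13 were lower and 8 higher, with a median of -0.06 that became 0.01 with scaling by library totals. Hk1, the hexokinase gene with a germ cell form, was at 211, 186 and 198 CPM and 69.7 and 67.0 CPM and the monocarboxylate carrier Slc16a7 at 78.0, 74.2 and 77.8 CPM and 32.5 and 28.5 CPM, whereas Pkm, Ldhb and Hk2, which somatic cells use, rose by 0.24 ± 0.04, 0.24 ± 0.04 and 0.25 ± 0.04.

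Testis gene families held mostly falls. Of 32 Adam genes tested, 22 were lower and 3 higher (median -0.54), with 1 higher without knockout 1 or knockout 2, and 5 had 0 counts in knockout. Adam24 had 1003 counts in wild type and 1 in knockout, a ratio of 702 (95% counting interval 126 to 27739), while the widely used Adam17, the main ectodomain sheddase, was at 63.0, 62.0 and 61.0 CPM and 68.7 and 74.1 CPM (log2 difference 0.21 ± 0.05, edgeR adjusted p = 0.00215, and 0.0707 without knockout 2). Of 60 Prss serine protease genes named, 28 passed the filter, and 13 were lower and 3 higher (median -0.29). Prss39 was at 75.3, 74.4 and 69.2 CPM and 26.0 and 21.2 CPM and Prss54 had 1083 counts in wild type and 2 in knockout, while Prss35 rose from 79.6, 66.4 and 72.1 CPM to 91.2 and 102 CPM. Of 5 Iqcf genes, the 3 tested were lower (median -5.17 with bounds), with 0 counts in knockout for Iqcf4 and Iqcf5 (at least 35.9-fold and 35.7-fold lower). Of 61 Spata and Tex genes tested, 44 were lower, 31 of them by a log2 size of at least 1, and 9 were higher (median -1.17, and -0.74, -0.78 and -0.79 without wild type 1, 2 and 3; 5 were higher without knockout 2). Tex21 fell from 47.1, 40.4 and 46.9 CPM to 1.31 and 1.67 CPM and Spata21 from 85.6, 60.1 and 73.1 CPM to 2.09 and 1.33 CPM, and the X-linked Tex13b rose by 0.41 ± 0.07.

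**Figure D3:**
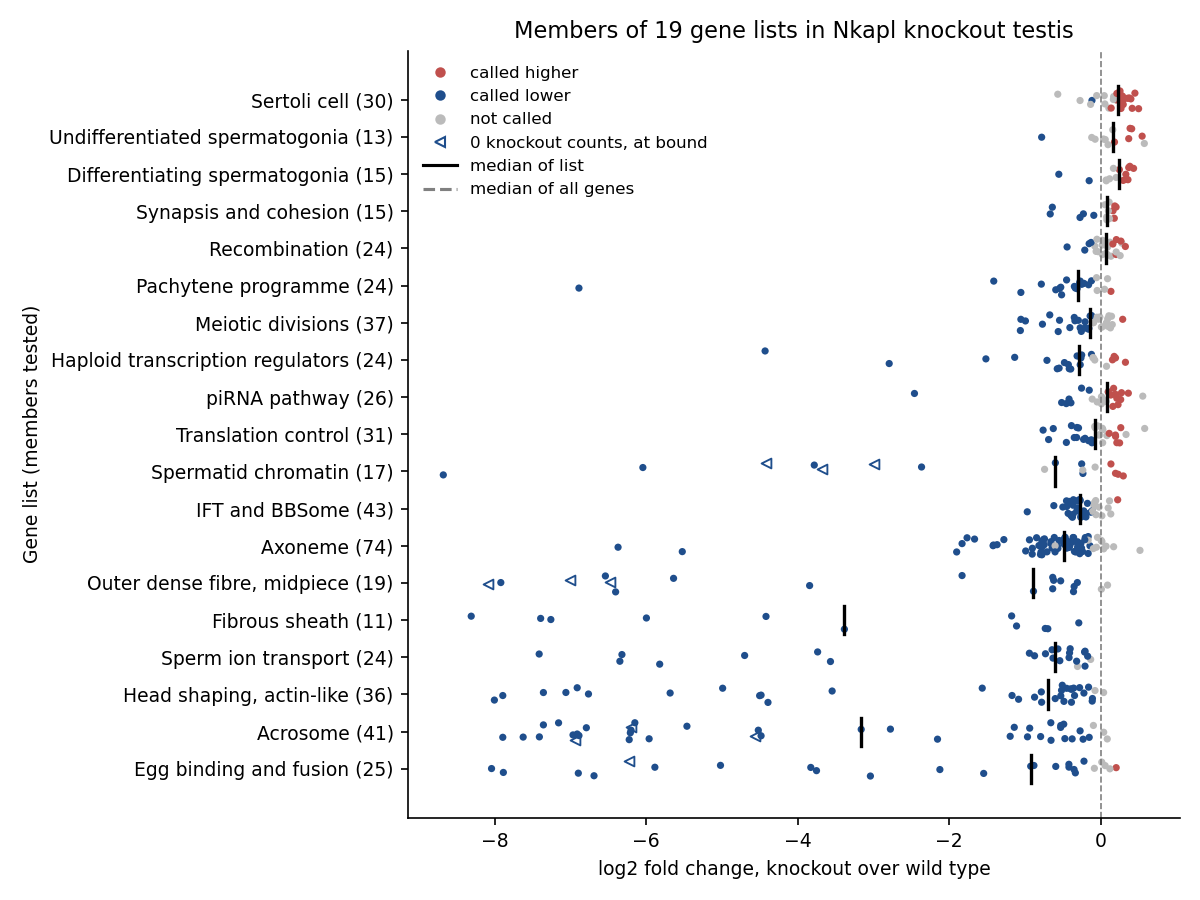
Log2 fold change of knockout over wild type (horizontal axis) for each tested member of 19 gene lists (vertical axis, number tested in brackets), from 3 wild-type and 2 knockout libraries; colours give edgeR's call, black lines the list medians, triangles genes with 0 knockout counts at their bound. Medians move from 0.23 for Sertoli cell genes to -3.38 for fibrous sheath genes.

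Lists of the cytoskeleton and of protein turnover had medians between -0.28 and -0.01. Of 35 genes of tubulins and tubulin-modifying enzymes, 21 were lower and 6 higher (median -0.28). The tubulin ligase-like genes Ttll8, at 25.9, 22.3 and 27.8 CPM in wild type and 1.26 and 1.90 CPM in knockout, and Ttll7, at 39.9, 31.5 and 34.0 CPM and 4.96 and 4.41 CPM, fell, and Tubb5 and Tuba1a, which somatic cells also use, rose by 0.22 ± 0.04 and 0.20 ± 0.04. Of 40 kinesins, 15 were lower and 6 higher (median -0.03), but with scaling by library totals 13 were lower and 13 higher (median 0.04). Examples are Kif2b at 44.9, 31.1 and 39.7 CPM and 0.584 and 0.494 CPM and Kif9, a motor of the central pair, at 322, 331 and 319.9 CPM and 189 and 184 CPM. Of 28 ubiquitin pathway genes of haploid cells, 17 were lower and 3 higher (median -0.28). Klhl10, an adaptor of a spermatid ubiquitin ligase, was at 32.9, 23.8 and 28.1 CPM and 0.730 and 0.532 CPM. Of 49 proteasome genes, 9 were lower and 6 higher, with a median of -0.01. The counts were 6 lower and 8 higher without wild type 1 and with scaling by library totals (median 0.06 with the latter), and 6 lower and 7 higher with upper-quartile scaling. Without wild type 3, 3 were higher, and without knockout 2, 2 were higher and 5 lower. Psme4, the activator that serves histone degradation in spermatids, was at 629, 644 and 645 CPM and 443 and 401 CPM, a log2 difference of -0.60 ± 0.04. Of 75 heat shock and DnaJ genes, 37 were lower and 6 higher (median -0.15), with Dnajb13, a radial spoke protein, at 53.05, 44.0 and 50.4 CPM and 21.5 and 19.6 CPM and Hspa8, a general chaperone, at 533, 551 and 537 CPM and 606 and 599 CPM.

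Lists of basic cell machinery had medians between -0.06 and 0.32. Of 81 genes of the cytosolic ribosome, 28 were higher and 5 lower (median 0.07, and 0.11 without wild type 1), with 14 higher without wild type 3 and 15 higher and 1 lower without knockout 2. The lower ones included the germ cell copies Rpl10l, Rpl39l and Rps4l, with log2 differences of -0.19 ± 0.05, -0.27 ± 0.07 and -0.18 ± 0.04, each of which was no longer called without knockout 2 (edgeR adjusted p = 0.158, 0.156 and 0.0632). Rps4x, the X-linked form, rose from 51.4, 48.6 and 50.7 CPM to 60.9 and 64.2 CPM. Of 60 replication-dependent histone genes, 43 were higher and 1 lower (median 0.32), with 26 higher without knockout 2 and 0 lower without wild type 2, wild type 3, knockout 1 or knockout 2. Hist1h1a, a linker histone of dividing cells, was at 336, 324 and 321 CPM and 417 and 422 CPM and Hist1h2bm at 71.0, 65.9 and 66.1 CPM and 93.9 and 93.6 CPM. Many of these genes are near-identical copies, so the split of reads among them is uncertain, but the summed level of all 69 genes of the list was 3694 to 3928 CPM in wild type and 4492 to 4628 CPM in knockout. Of 91 respiratory chain genes, 27 were lower and 5 higher, with a median of -0.04 that became 0.02 with scaling by library totals, when 17 were lower and 15 higher; 16 were lower without knockout 2, and 2 to 10 were higher over all left-out libraries, with medians of -0.08 to -0.01. Among the lower ones were Cox6b2 and Cox8c, testis forms of cytochrome oxidase subunits, at 126, 117 and 111 CPM and 90.7 and 88.6 CPM and at 119.6, 123 and 121 CPM and 98.9 and 91.4 CPM. Of 23 genes of cholesterol synthesis, 6 were lower and 5 higher (median -0.06, and 0.00 with scaling by library totals), and without knockout 2 these were 3 and 1. Over left-out libraries the median ranged from -0.10 to -0.02. Fdft1, which makes squalene, was at 181, 182 and 183 CPM and 99.4 and 92.9 CPM, a log2 difference of -0.92 ± 0.04.

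Signalling and stress lists were counted in the same way. Of 31 Notch pathway genes, 11 were higher and 5, Nkapl among them, lower (median 0.17), with 6 higher without knockout 1 and 4 without knockout 2. The receptors Notch1, at 83.1, 91.1 and 87.1 CPM in wild type and 121 and 114 CPM in knockout, and Notch2, at 128, 135 and 131 CPM and 156 and 158 CPM, rose, and the ligand Dll3, at 11.3, 10.7 and 10.6 CPM and 5.35 and 4.56 CPM, and the corepressor genes Spen and Cir1 fell (log2 differences -1.14 ± 0.13, -0.40 ± 0.04 and -0.59 ± 0.06). Of 19 retinoic acid genes, 6 were higher and 4 lower (median 0.19), with 4 higher without wild type 3 or knockout 2. Stra6, the retinol uptake receptor, rose by 0.52 ± 0.09 and Cyp26b1, which degrades retinoic acid, by 0.30 ± 0.05, and Aldh1a2, which makes it in germ cells, fell from 136, 142 and 147 CPM to 125 and 120.5 CPM. Of 27 genes of p53 and apoptosis, 8 were higher and 3 lower (median 0.12), with 2 higher without knockout 2. The pro-apoptotic Bcl2l11 rose by 0.51 ± 0.08 and the pro-apoptotic Bbc3 fell by 1.01 ± 0.22 on the log2 scale. Of 20 interferon and antiviral genes, 4 were higher and 0 lower (median 0.32), and without knockout 1, 2 were higher (median 0.12). Of 21 genes of the unfolded protein response, 7 were higher and 4 lower (median 0.07), with 2 lower without knockout 2. Among them was Syvn1, a ligase of the degradation pathway of the endoplasmic reticulum, at 97.5, 99.8 and 95.9 CPM and 142 and 142 CPM.

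Somatic cells of the testis were checked in the same libraries. Of 30 Sertoli cell genes, 19 were higher and 1 lower (median 0.23; 0 to 2 lower over left-out libraries), and their summed level was 3224 to 3357 CPM in wild type and 3753 to 3905 CPM in knockout. Sox9, the defining factor of these cells, was at 65.7, 62.6 and 62.6 CPM and 82.2 and 87.1 CPM, a log2 difference of 0.41 ± 0.05 (edgeR adjusted p = 1.13e-06), and Cldn11 of the tubule barrier and Kitl, the ligand of Kit, rose by 0.35 ± 0.04 and 0.37 ± 0.04. Of 15 Leydig cell genes, 4 were higher and 3 lower (median -0.12). Cyp17a1, a steroid enzyme, was at 18.6, 24.4 and 21.4 CPM and 6.47 and 13.3 CPM, a log2 difference of -1.08 ± 0.18 with knockout libraries far apart, and the summed level of all 17 genes of the list overlapped between the groups (514 to 635 CPM in wild type, 569 to 614 in knockout). Insl3, a marker of mature Leydig cells, was under 1 CPM in all 5 libraries. Of 13 peritubular genes, 4 were higher and 2 lower (median 0.05), of 19 macrophage genes 0 and 2 (median -0.07) and of 16 endothelial genes 1 and 1 (median 0.09). Of 27 epididymal genes, 8 passed the filter, with 1 higher and 0 lower (median -0.15). The summed level of all 27 was 36.5 to 43.9 CPM in wild type and 40.3 to 46.6 CPM in knockout, with Crisp1 at 1.59 to 4.77 CPM and 1.67 to 5.40 CPM. Lcn5 had 0 counts in wild type and 3 counts in knockout. The higher summed level of the Sertoli list stands beside the falls of the spermatid lists, and its part in them was not tested. Without single libraries, the peritubular list had 1 to 5 members higher (median 0.02 to 0.11), and the median of the epididymal list ranged from -0.96 without knockout 1 to 0.17 without knockout 2. The Leydig list then had 1 to 5 members lower, with 5 without wild type 2 and 1 without knockout 1 (median -0.17 to -0.08). The macrophage list had 3 lower without wild type 2, 0 without knockout 1 and 1 without each of the other 3 libraries (median -0.15 to -0.02). The endothelial list had 2 higher without wild type 1 and 0 without knockout 2 (median 0.03 to 0.21).

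Genes were also ranked by the amount of CPM lost or gained in place of the ratio. The gene that lost most was Dnah8, a heavy chain of the outer dynein arm, at 4273, 4982 and 4662 CPM in wild type and 3396 and 3397 CPM in knockout, a log2 difference of -0.45 ± 0.05 (edgeR adjusted p = 3.51e-07). It was followed by Atp8b3, a lipid flippase of the acrosome, at 1670.1, 1646 and 1652 CPM and 1096 and 1052 CPM, and Dnah17, another outer arm heavy chain, at 1257, 1458 and 1345 CPM and 809.5 and 807 CPM. In each of these genes the groups were apart by more than the spread within either. Then came Pabpc1 (-0.21 ± 0.03), Fhl4 (-0.66 ± 0.04), the cytoplasmic dynein heavy chain Dync1h1 (-0.30 ± 0.03), Odf2 (-0.63 ± 0.03) and the ubiquitin ligase Trip12 (-0.30 ± 0.03), with log2 differences in brackets. The gain was led by Rn45s, the ribosomal RNA precursor, at 40142, 40622 and 40414 CPM in wild type and 54155 and 51251 CPM in knockout. Its share of the counts was 3.96% to 3.97% in wild type and 5.29% to 5.53% in knockout, so the part of each library left for other genes differed between the groups. Without Rn45s the counts of calls were 4412 lower and 3014 higher. Other gains were Clu, a Sertoli cell secretory protein, at 1022, 1019 and 998 CPM and 1181 and 1245 CPM, Trrap and Srrm2 (log2 differences 0.26 ± 0.04 and 0.17 ± 0.04) and the collagen gene Col3a1, at 699.6, 601 and 638 CPM and 838 and 771 CPM. Rpph1 and Rmrp, RNA parts of ribonucleases, had log2 differences of 0.25 ± 0.06 and 0.33 ± 0.09 by edgeR and adjusted p-values of 0.13 and 0.20 by DESeq2; for Rmrp wild type 1 lay within the knockout range and the edgeR adjusted p was 0.053 without wild type 3 and 0.10 without knockout 2.

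The largest relative rises were in genes of low level. Car3, a carbonic anhydrase of muscle and fat, was at 0.954, 1.10 and 1.25 CPM in wild type and 2.33 and 5.47 CPM in knockout, a log2 difference of 1.85 ± 0.30 (edgeR adjusted p = 7.75e-05), with knockout 2 well above knockout 1. Eno2, an enolase best known from neurons, was at 1.18, 1.15 and 1.39 CPM and 3.21 and 2.93 CPM, a log2 difference of 1.30 ± 0.22. Scara3, a scavenger receptor class protein, was the most abundant of these, at 11.2, 13.4 and 11.8 CPM and 22.9 and 25.8 CPM, a log2 difference of 1.01 ± 0.09. Dkk3, a secreted protein of the Dickkopf family, was at 3.81, 3.18 and 4.20 CPM and 7.98 and 7.14 CPM, and Padi2, a protein arginine deiminase, at 8.08, 7.16 and 8.67 CPM and 13.6 and 17.1 CPM. Sfn, which encodes 14-3-3 sigma, rose by 1.10 ± 0.24 (edgeR adjusted p = 0.00133, and 0.0576 without knockout 2), Bcan by 0.95 ± 0.21 (edgeR adjusted p = 0.00124, and 0.0524 without knockout 2) and Shisa8 by 0.92 ± 0.16. H2-Q10, Srp54b and Alkbh3os1 were also among the 12 largest rises (log2 differences 1.10 ± 0.21, 0.97 ± 0.21 and 0.98 ± 0.19). The first 2 of these have near-identical copies and the third lies antisense to another gene, so their counts are uncertain.

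The largest rise among genes named by the rule was at the miRNA locus Mir1947 on chromosome 16, at 1.14, 1.15 and 0.849 CPM in wild type and 4.09 and 4.37 CPM in knockout, a log2 difference of 2.01 ± 0.21 (edgeR adjusted p = 5.21e-07). Both knockout libraries were more than 3-fold above every wild-type library. Its mature sequences in RefSeq, with the seed (bases 2 to 8) in capitals, are shown because it leads the named rises; the 2 arms, at chr16:33105375-33105396 and chr16:33105411-33105432 on the plus strand of GRCm38.p6, have different seeds.
miR-1947-5p: aGGACGAGcuagcugagugcug
miR-1947-3p: gCACUGAGcuagcucucccucc
Libraries of this kind count reads over the locus and not mature miRNAs, and reads of a longer transcript that crosses the locus cannot be told apart from those of the miRNA precursor. Of 147 genes with miRNA names that passed the filter, 6 were higher and 2 lower (median 0.07), with 13 higher without wild type 2 (median 0.16) and 3 without knockout 2. Of 42 other small RNA genes tested, 4 were higher and 0 lower (median 0.14), with 2 higher when knockout 1 (median 0.27) or knockout 2 (median 0.01) was left out.

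The X chromosome stood at both ends of the changes. Of 697 X-linked genes tested, 25.7% were higher, against 17.5% of autosomal genes, and 16.9% were lower, against 26.5%. Yet 14.2% of them were lower by a log2 size of at least 1, against 8.32% of autosomal genes. Falls under that size were few: 118 X-linked genes were lower and 99 of these were large falls, while 1347 of 4288 autosomal falls were large. Among the X-linked genes, Akap4 fell as given above, and Tex11, Huwe1 and Rps4x rose (log2 differences 0.27 ± 0.05, 0.25 ± 0.04 and 0.32 ± 0.05). Without wild type 3, 19.4% of X-linked genes were higher and 13% were large falls. Over all genes of that fit these shares were 12.7% and 8.07%. Chromosome 14 had 13.9% large falls (12.8% without wild type 3), and the other autosomes had 6.36% to 9.70%. These shares are descriptions, since neighbouring genes of 1 family are not independent.

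**Figure D4:**
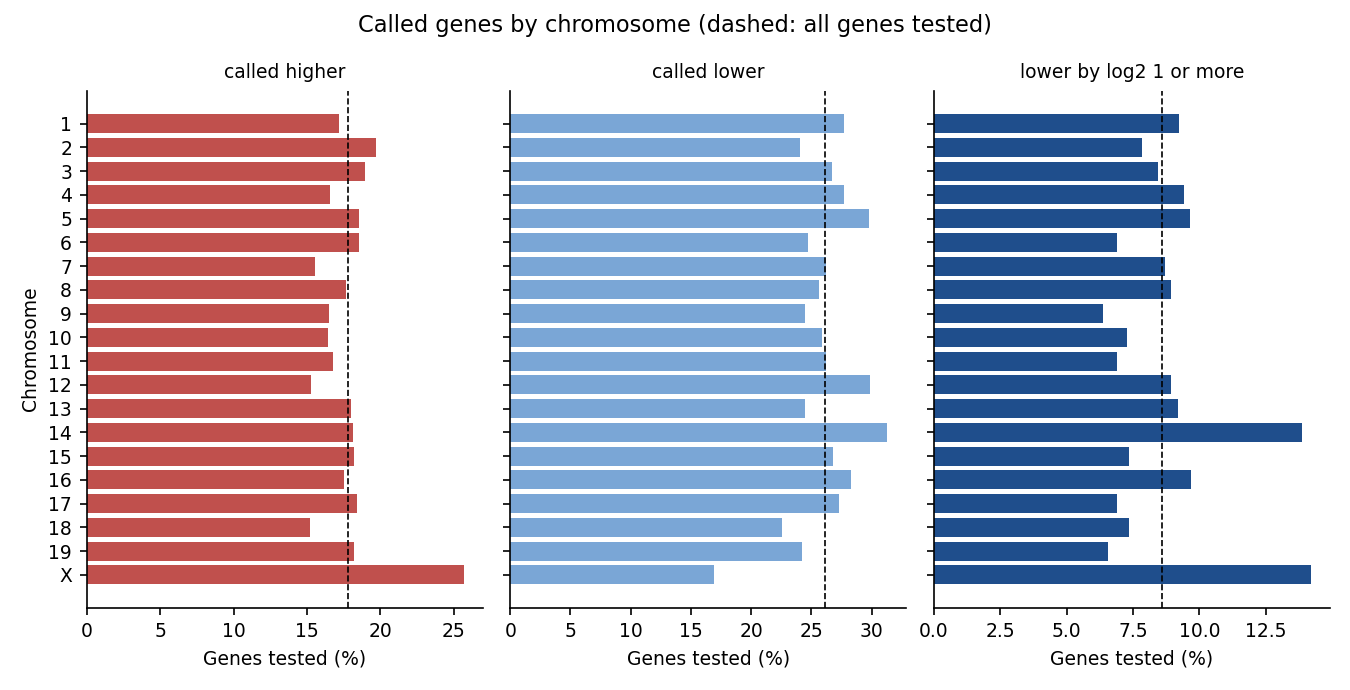
Share of tested genes (horizontal axes, %) called higher, called lower and lower by a log2 size of at least 1, for each autosome and the X chromosome (vertical axis); dashed lines give the share over all genes tested. The X chromosome has the highest share of rises (25.7%) and, with chromosome 14, the highest share of large falls.

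The kind and build of a gene also went with its change. Long noncoding RNA genes fell often: of 1124 tested, 41.4% were lower, 27.0% by a log2 size of at least 1, and 2.67% were higher, against 25.2%, 7.25% and 19.2% of 15427 protein-coding genes. Of protein-coding genes with 1 exon, 18.7% were large falls, and the share declined through 13.4% with 2 to 3 exons and 8.36% with 4 to 6 to 4.97% with 13 or more. Called rises ran the other way, from 11.5% with 2 to 3 exons to 25.3% with 13 or more, with 18.4% of single-exon genes higher. The median log2 difference moved little, from -0.02 with 2 to 3 exons to 0.03 with 13 or more. Falls of any size made up 33.0% with 1 exon, 27.3% with 2 to 3 and 26.0% with 13 or more. The part of read depth in these shares was not tested. Protein-coding genes that fell by a log2 size of at least 1 had a median of 6 exons and spanned a median of 16878 bases, those called higher 11 exons and 31187 bases, and all tested ones 9 exons and 24061 bases. In the class with 0 knockout counts the medians were 3 exons and 6420.5 bases, and 17.4% had a single exon, against 2.99% of all. The 161 genes of this class, of all kinds, had a median of 80 counts over all wild-type libraries. Genes with few counts reach 0 more readily, and the part of this in the medians was not tested. Exon numbers are those of the GENCODE M21 basic annotation and were found for 99.8% of tested protein-coding genes. Without wild type 3, 17.3% of single-exon genes and 25.3% of long noncoding RNA genes were large falls. In that fit the share was 6.84% over protein-coding genes and 8.07% over all genes. Nkapl itself has 1 exon.

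**Figure D5:**
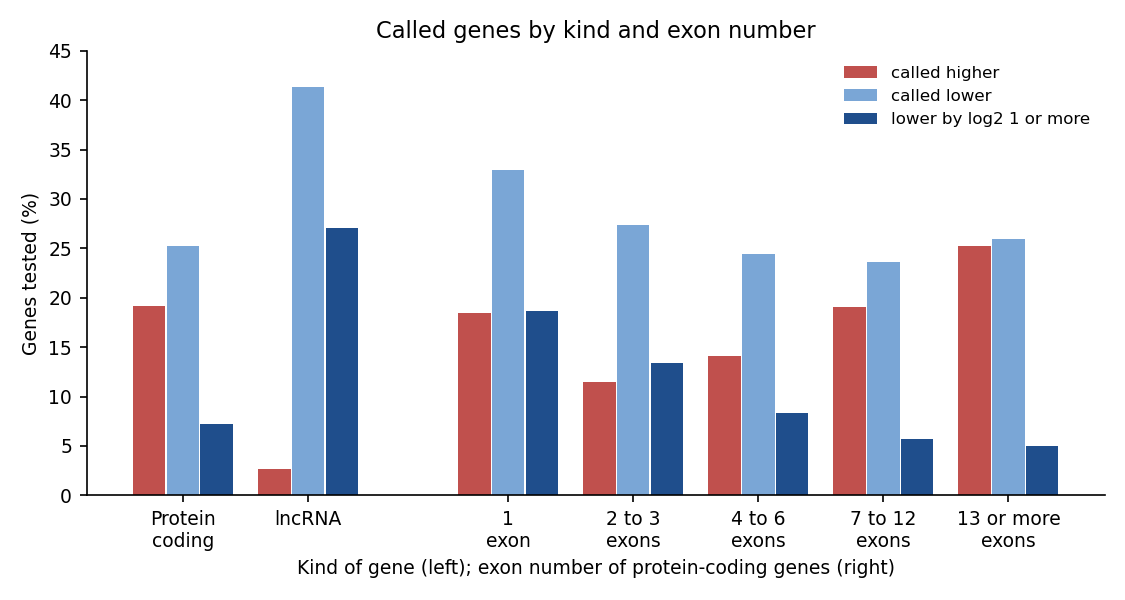
Share of tested genes (vertical axis, %) called higher (red), called lower (light blue) and lower by a log2 size of at least 1 (dark blue), for protein-coding and long noncoding RNA genes and, among protein-coding genes, by exon number (horizontal axis). Large falls decline from 18.7% of single-exon genes to 4.97% of genes with 13 or more exons.

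Promoter letters of the changed genes were counted in the RefSeq windows of protein-coding genes outside chromosome 18, where 82.2% of 15013 tested genes had a window. Both strands were searched. ACAATGG was in 2.43% of all 12335 windows, in 8.32% of the 901 windows of large falls and in 14.7% of the 75 windows of genes without a knockout count, but in 1.80% of the 2389 windows of genes called higher. The shorter SOX core AACAAT, which can share letters with it, was in 6.37% of all windows, 12.4% of large falls, 21.3% of the class without a knockout count and 5.15% of rises. The X-box core GTTGCC was in 13.1% of all windows, 19.3% of large falls, 24.0% of the class without a knockout count and 10.4% of rises. In the same order, TATAAA was in 7.97%, 10.5%, 20% and 7.33%, AACTGTC, a MYB site, in 2.93%, 4.55%, 4% and 2.43%, AACTGC in 12.8%, 15.3%, 10.7% and 12.3%, and CCAAT in 38.9%, 37.0%, 48.0% and 38.1%. The short form of the CRE, TGACG, ran against large falls, with 29.1% of all windows, 16.5% of large falls, 9.33% of the class without a knockout count and 31.1% of rises; the full site TGACGTCA, which holds it, was in 2.98%, 2.11%, 2.67% and 3.22%. Base composition moved with these shares: the median GC content was 60.0% in all windows, 52.0% in large falls, 44.0% in genes without a knockout count and 62.3% in rises. As a measure of composition, chosen after the shares had been seen, the longer SOX letters in reversed order, GGTAACA, were in 1.66% of all windows, 3.55% of large falls, 8% of the class without a knockout count (6 of 75 windows) and 0.88% of rises. For the X-box core the reversed letters, CCGTTG, were in 6.95%, 6.33%, 4% and 6.20%. They hold the letters CG, which GTTGCC does not, so they cannot serve as a measure of composition for it. The part of base composition in the shares was not tested further. Over all called falls, in place of the large ones, ACAATGG was in 3.61% and GTTGCC in 17.3% of 3162 windows.

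The genes lower in knockout testis were also read in libraries that share none with the fit. In libraries labelled round spermatids, with 2 knockout and 2 wild-type libraries, 15016 genes were tested by edgeR, of which 33.1% were lower and 31.6% higher in knockout. Of the 1457 large falls of the testis 1419 were tested there, and 883 were lower and 273 higher, which is 62.2% and 19.2% of those tested and 17.7% of all genes lower in the spermatids. Of the 1349 large falls called without wild type 3, 828 of 1324 tested were lower there. Nkapl was at 81.5 and 83.3 CPM in wild-type spermatids and 22.8 and 21.9 CPM in knockout spermatids. Akap4 was at 1186 and 1258 CPM in wild-type and 772 and 769 CPM in knockout spermatids, a log2 difference of -0.67 ± 0.04 there against -7.39 ± 0.28 in testis. Smcp was at 1064 and 864 CPM and 489 and 495 CPM, Gapdhs at 976 and 968 CPM and 534 and 533 CPM, and Acrv1 at 323 and 326 CPM and 284 and 279 CPM. These 4 genes were at 0 to 0.292 CPM in the knockout testes, with 0 to 10 counts in both together, and at 279 to 772 CPM in knockout spermatids. Rn45s made up 0.015% to 0.022% of the counts in the spermatid libraries and 3.96% to 5.53% in the testis libraries. Levels in spermatid and testis libraries are therefore not directly comparable. The labels give day 21 for the spermatids too, and the difference between the effects in testis and in spermatids was not tested. The Sox30 knockout testes of the series, 2 libraries, were compared in the same way with 3 wild-type libraries of their own set. One repeated column was counted once there, and the heading of wild type 3 of that set is a wild-type number while its file is filed as a Sox30 knockout. Sox30 itself was at 77.6, 86.2 and 72.4 CPM in those wild types and at 44.7 and 61.5 CPM in the knockouts, a log2 difference of -0.57 ± 0.15 that was not called (edgeR adjusted p = 0.17). Of 17816 genes 1.92% were lower and 0.505% higher in these knockouts. Of 1452 large falls of Nkapl knockout testis tested, 320 were lower and 8 higher, and these 320 make up 93.6% of the genes lower there. Without wild type 3 of the Sox30 set, 3.44% of 17746 genes were lower and 0.468% higher, and 473 of 1450 large falls were lower and 9 higher. These 473 make up 77.5% of the genes lower in that fit, in which Sox30 had an edgeR adjusted p of 0.14. For example, Odf3 had 0 counts in both Sox30 knockout libraries, and Zan, called far lower in Nkapl knockout testes, was at 16.8 and 53.3 CPM there and at 38.4, 61.8 and 39.0 CPM in their wild types, without a call.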

How the data were processed

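Total RNA of whole testes was sequenced with a stranded kit, per the labels' protocols, and read counts per gene were deposited, 1 column per file. The submitters' processing notes name HISAT2 2.1.0, HTSeq, DESeq2 and the mm10 build, without roles; annotation, strand setting and the treatment of reads shared by copies: not given in the sources used here. Libraries were grouped by the number in the column heading, and a repeated column was counted once. In the files read no other column of per-sample values was left unused. Not all files of the series were read.

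Counts were tested with edgeR 4.0.16 (R 4.3.3; filterByExpr, TMM, quasi-likelihood F-test, Benjamini-Hochberg over all genes tested) on 3 wild-type and 2 knockout libraries with no covariates. Each standard error was obtained as log2 fold change over root F. The script was tested on simulated data. Ratios with 1 to 3 knockout counts have 95% intervals of counting error. The same fit was made for round spermatids and for Sox30 knockout testes. Limma 3.58.1 and DESeq2 1.42.0 served as alternatives, with other scalings, filters, groupings and left-out libraries. RefSeq tables on GRCm38.p6 gave positions, gene types and promoter windows, and tables were joined with Python 3.11.15, pandas 2.3.3 and scipy 1.17.1.

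The 47 gene lists, the members and the rules were chosen with earlier results of these data known. The genes named are Nkapl, Nkap and Sox30, the 12 largest rises and falls without overlap at a mean log2 CPM of at least 1, the 8 largest gains and losses in CPM, and up to 3 called members per list and direction by p plus the largest change, leaving out provisional symbols; list markers and genes with a promoter match were named beside them. Some genes that the rule names are not reported here.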

Additional observations from a re-analysis of the deposited data

How the results depend on the processing

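Leaving out each library in turn gave 1816 to 3169 genes higher, 3617 to 4279 lower, 31 to 46 higher by a log2 size of at least 1 and 1349 to 1486 lower by that size. The fewest rises came without knockout 2. Groups by the file record, which put wild type 3 with the knockouts, gave 0 genes in either direction by edgeR, and 0 and 0 past a log2 size of 1, with 415 genes at an unadjusted p under 0.05. DESeq2 with the main grouping gave 2051 higher and 3865 lower, and limma voom 3000 and 4377. Library totals alone gave 4605 higher. Rises of at least 1 numbered 19 with DESeq2, 15 with a minimum of 1 CPM in 2 libraries and 2 with edgeR's glmTreat at a log2 size of 1, which called 1033 falls. The fit with the replicate number as a block, on numbers 1 and 2, gave 2141 higher and 3837 lower. The labels do not say that a number pairs libraries across genotypes, and the deviations of same-numbered libraries had a correlation of 0.034 across genes. In these fits no named gene changed direction; of 268, 36 lost their call without knockout 2, 24 without knockout 1 and 15 without wild type 3. With 2 knockout libraries and 0 to 3 counts left in many genes, depth bounds the size of the largest falls. Leaving out libraries other than wild type 3 for the gene lists, and wild type 3 for the readings in other libraries of the series, was chosen after seeing the data.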

Other observations

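Outside the lists, the largest rises by ratio were in genes under 3 CPM that encode plasma proteins of the liver and a leukocyte integrin. Alb, which encodes albumin, was at 0.227, 0.309 and 0.268 CPM in wild type and 2.48 and 0.494 CPM in knockout, a log2 difference of 2.37 ± 0.58 (edgeR quasi-likelihood test, Benjamini-Hochberg adjusted p = 0.00299). Apob, the apolipoprotein of lipid particles, was at 0.454, 0.221 and 0.671 CPM and at 2.97 and 0.798 CPM, and Hp, which encodes haptoglobin, at 0.227, 0.177 and 0.0894 CPM and at 0.486 and 0.874 CPM. Itgax, an integrin of dendritic cells and macrophages, was at 0.0908, 0.0884 and 0.134 CPM and at 0.681 and 0.494 CPM. In Alb and Apob knockout 1 was several times above knockout 2, and in Hp the order was reversed. These genes were chosen after their values had been seen. They rest on 27 to 82 counts in both knockout libraries together.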
